A study of Mus musculus with 30 samples.

Results

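The change between 9 h and 12 h after fungal challenge was compared between wild-type (WT) and Nlrx1 deficient (KO) mouse dendritic cells. The quantity is a difference of differences: the log2 change from 9 h to 12 h in KO cells minus the same change in WT cells. A positive value means that a transcript changed upwards more, or downwards less, in KO cells than in WT cells. It was computed for every gene tested from 12 of the 30 libraries of the series, namely 3 each of WT 9 h, WT 12 h, KO 9 h and KO 12 h. Marrow cells had been cultured with the growth factor GM-CSF, under which myeloid precursors become dendritic cells, and all 4 groups received viable conidia (spores) of Aspergillus fumigatus, strain AF29, in a number equal to that of the plated cells. The other 18 libraries, from both genotypes at 0, 3 and 6 h, entered the estimate of spread, but not the contrast, and are shown beside it as the earlier course of both genotypes. The sources used here do not give the age, sex or strain background of the animals, or the part of Nlrx1 that was deleted. Whether replicate libraries represent different animals or cultures is not stated by the labels, so a p-value here weighs a difference against the spread among these samples alone, and that spread may be technical.

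Nlrx1 belongs to the NOD-like receptor family, a group of intracellular sensors, and its protein is found at mitochondria, where it has been linked to antiviral signalling, NF-kappaB activity and reactive oxygen species. Conidia that swell and germinate expose beta-glucan, which dendritic cells recognise through Dectin-1 (Clec7a), Syk, protein kinase C delta and Card9. That pathway leads to NF-kappaB activity and to release of cytokines and chemokines that recruit neutrophils.

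Nlrx1 itself, on chromosome 9 (GRCm38 chr9:44252717-44268599), was lower in the KO libraries but did not read as 0 in all of them. The WT 9 h libraries held 38, 27 and 46 Nlrx1 counts, or 12.7, 8.76 and 13.8 CPM (counts scaled to a common library total). At 12 h the WT libraries stood at 9.41, 5.26 and 8.19 CPM. In KO cells Nlrx1 stood at 3.76, 2.89 and 0 CPM at 9 h and at 3.92, 4.46 and 1.47 CPM at 12 h. All 6 KO libraries lay below all 6 WT libraries. KO against WT gave a log2 difference of -2.33 ± 0.60 (SE) at 9 h (edgeR adjusted p = 0.0209) and -1.15 ± 0.60 at 12 h (edgeR adjusted p = 0.485). The genotype difference in the step was 1.18 ± 0.88 for Nlrx1 and did not pass the test (edgeR adjusted p = 0.764).

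The libraries fell into sets by composition, and the split ran through the WT step. Genes of small RNA classes took 5.48% to 6.8% of all counts in the 12 WT libraries of 0 to 9 h and 3.07% to 4.28% in the other 18 libraries, which are those of WT at 12 h and of KO at every time. Within the 4 groups compared here, the share was 5.55% to 6.53% at WT 9 h, 3.82% to 4.01% at WT 12 h, 3.07% to 3.62% at KO 9 h and 3.2% to 3.53% at KO 12 h. Protein-coding transcripts of the mitochondrial genome went the other way, with 0.924% to 1.01% at WT 9 h, 1.19% to 1.31% at WT 12 h, 1.49% to 1.63% at KO 9 h and 1.6% to 1.75% at KO 12 h. The number of genes with a count was 24404 to 26258 at WT 9 h and 26597 to 33759 in the other 9 libraries. Total counts of the 12 libraries ran from 2105254 to 3509429, and no pair of replicates agreed within sampling noise. No label gives a batch, and WT 9 h is the only one of the 4 groups that belongs to the first set, so the composition and the time step of WT cells cannot be told apart.

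**Figure D1:**
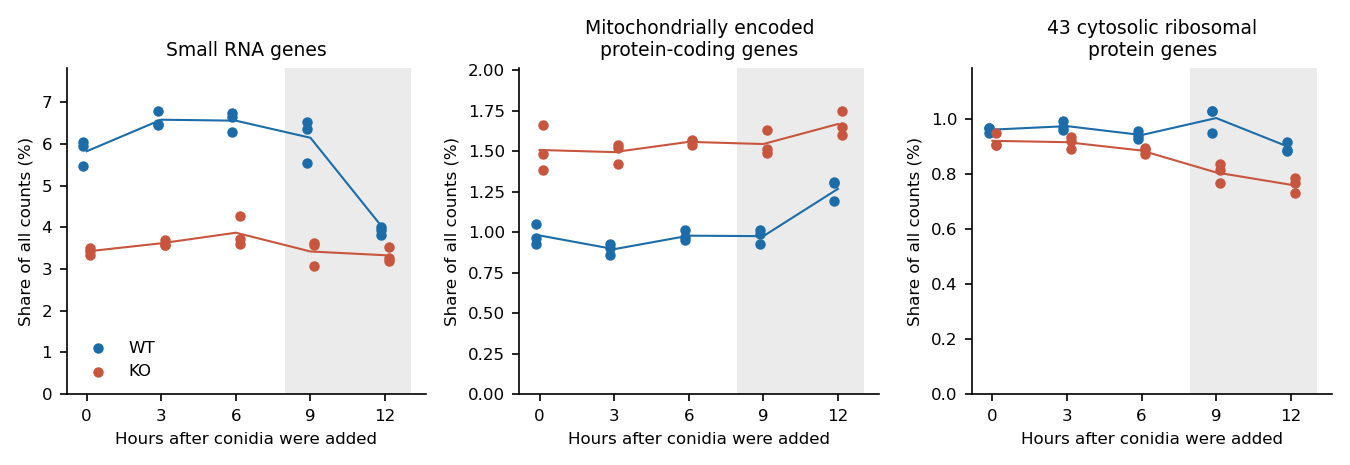
Share of all counts (%, linear axes from 0) taken by small RNA genes, by protein-coding genes of the mitochondrial genome and by 43 cytosolic ribosomal protein genes, against hours after conidia were added. Points are single libraries (3 per group), lines join group means, and the shaded band marks the 9-to-12 h step: the WT libraries stand apart from KO libraries in the first panel up to 9 h (5.48% to 6.8%) and near them at 12 h (3.82% to 4.01%).

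Of 12393 genes tested, 27 differed between genotypes in their step (0.218%, edgeR quasi-likelihood test, adjusted p under 0.05). The difference was positive for 18 (0.145%) and negative for 9 (0.0726%). They comprised small non-coding gene models, transcripts of the mitochondrial genome, ribosomal protein genes, and single genes with roles in stress response, secretion and signalling. At an unadjusted p under 0.05 there were 1167 of the 12393 genes, the background for list counts at that level. A single called gene, Gm25911, reached a 2-fold difference.

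WT cells had more called changes over the step than KO cells in the fit reported here, and fewer with the small RNA share as a covariate (39 in WT against 540 in KO cells). That share was 5.55% to 6.53% at WT 9 h and 3.82% to 4.01% at WT 12 h, and it overlapped between the KO times. The covariate fit therefore cannot separate the share from the WT step, and its counts do not rank the genotypes. Without the covariate, WT cells changed 1305 genes between 9 h and 12 h (10.5%), of which 640 rose (5.16%) and 665 fell (5.37%). KO cells changed 557 (4.49%), of which 329 rose (2.65%) and 228 fell (1.84%). The steps had 363 genes in common, all in the same direction, which is 27.8% of the WT calls and 65.2% of the KO calls. Across the 12393 genes, which are not independent of each other, the WT and KO steps had a Pearson r of 0.24, and they share no library. The 640 genes that rose in WT cells had a median log2 change of 0.58 there and 0.29 in KO cells. The 329 that rose in KO cells had a median of 0.60 there and 0.50 in WT cells, and choosing genes by 1 arm raises that arm's median.

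**Figure D2:**
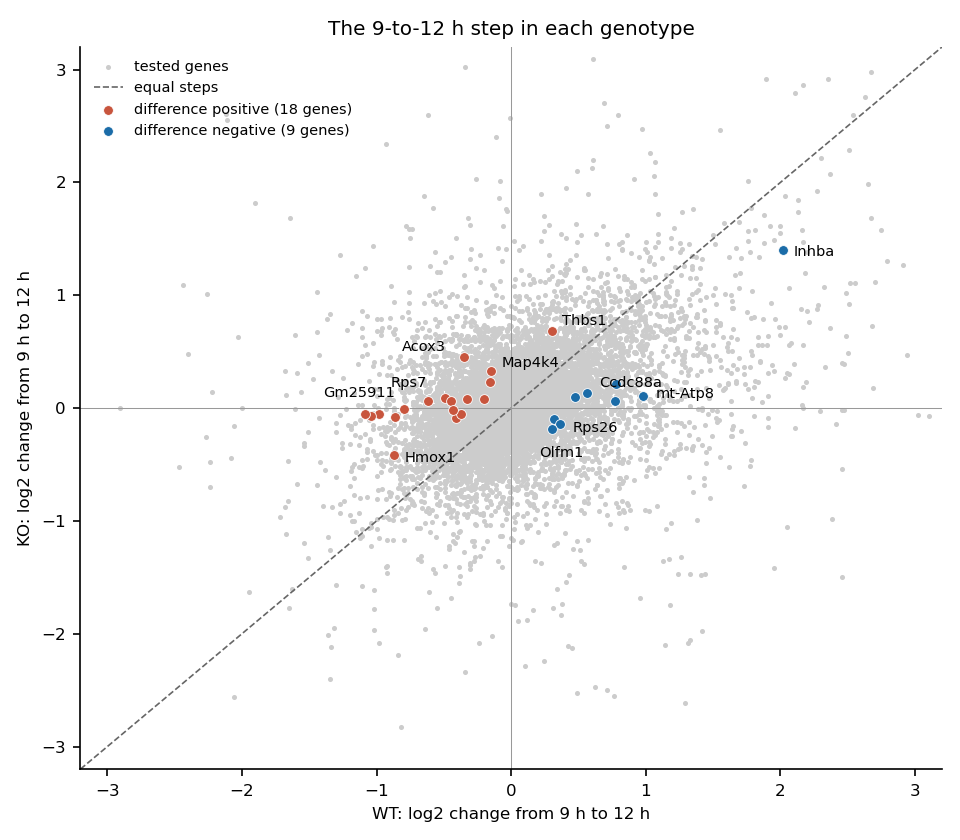
Log2 change from 9 h to 12 h in KO cells (vertical) against that in WT cells (horizontal) for the tested genes, leaving out 62 that lie beyond the axes. The dashed line marks equal steps; the 18 genes with a positive difference (red) lie above it and the 9 with a negative difference (blue) below it, and most of the 27 sit near the horizontal axis, where the KO step is close to 0.

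Most of the 27 called genes passed the test in the WT step alone, which does not show that their KO step was 0. In 21 of them the WT step passed the test and the KO step did not, in 3 (Hmox1, Inhba and Thbs1) both passed, and in 3 (Map4k4, Acox3 and Gm16385) the KO step alone passed. The WT change was the larger in 23. KO differed from WT at 9 h in 24 of the 27, against 5.06% of all genes tested, and at 12 h in 8, against 1.9%. In 25 of the 27 the KO mean at 9 h already lay on the side of the WT 9 h mean to which WT cells moved by 12 h, the exceptions being Hmox1 and Thbs1. In 22 the WT 9 h libraries did not overlap with those of the other 3 groups, against 9.69% of all genes tested. In 14 the 12 WT libraries of 0 to 9 h did not overlap with any of the other 18, against 0.726%. These counts share libraries with the difference that chose the genes, so they describe the 27 and test nothing. With a covariate for each library's small RNA share, 0 genes were called in edgeR and 545 had an unadjusted p under 0.05. The share set WT 9 h apart from the other 3 groups, so that fit cannot separate it from the WT step.

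The sizes of the 27 differences responded unevenly to that covariate. The share sums all small RNA genes, including the called ones, so a smaller difference for those genes is partly built in. The 5 near-identical models described below took 3.31% to 3.88% of counts at WT 9 h, within a share of 5.55% to 6.53%. The differences came to 0.01 ± 0.21 for Rn7sk, -0.01 ± 0.12 for mt-Co3 and 0.02 ± 0.18 for Gm28439. Inhba came to -0.16 ± 0.19, mt-Atp8 to -0.36 ± 0.17 and Gm26377 to -0.26 ± 0.25. Hmox1 came to 0.23 ± 0.15, Gm23935 to 0.23 ± 0.16, Rps7 to 0.24 ± 0.17, Rplp0 to 0.20 ± 0.12, Rpl37 to 0.30 ± 0.17 and Gm16385 to 0.16 ± 0.15. The other small RNA models kept more of their size, with Gm24270 at 0.61 ± 0.16, Gm24187 at 0.59 ± 0.16 and Gm25911 at 0.66 ± 0.19. Gm8730 came to 0.50 ± 0.29, Acox3 to 0.54 ± 0.31, Map4k4 to 0.32 ± 0.15, Prrc2a to 0.31 ± 0.17, Fermt3 to 0.29 ± 0.16 and Gm26917 to 0.25 ± 0.08. Differences of about the reported size were left for Ccdc88a (-0.51 ± 0.16), Selenot (-0.49 ± 0.15), Olfm1 (-0.55 ± 0.19), Rps26 (-0.46 ± 0.19), Thbs1 (0.37 ± 0.14) and Prkcd (0.27 ± 0.11), with wider errors than without the covariate. None of these values passed (edgeR adjusted p from 0.747 to 1).

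The strongest differences were in a family of near-identical gene models annotated as miRNA genes, and their sequences are shown because they decide what the counts can resolve. Gm24270, Gm24245 and Gm23935 have the same 57 bases on chromosomes 9, 4 and 16 (GENCODE M21, GRCm38, 5′ to 3′ on the gene's strand). Gm24187 on chromosome 13 differs by G11A, and Gm25911 on chromosome 1 differs by G14A and is 1 base shorter, at 56 bases. Positions count from 1 at the 5′ end of the shared sequence, with the shared base first, and capitals mark the substituted bases.
Gm24270: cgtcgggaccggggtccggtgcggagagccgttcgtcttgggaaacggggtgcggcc
Gm24187: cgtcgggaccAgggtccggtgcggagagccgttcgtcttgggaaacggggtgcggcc
Gm25911: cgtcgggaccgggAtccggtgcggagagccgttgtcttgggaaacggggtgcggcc
The locations are chr9:56223715-56223771 for Gm24270, within Peak1 but outside its exons, chr16:11144125-11144181 for Gm23935, opposite Zc3h7a and outside its exons, chr13:9834469-9834525 for Gm24187 and chr1:167340369-167340424 for Gm25911. Reads of the 3 identical copies cannot be told apart, so their counts depend on how the authors' counting shared them. Of the 31-base words (stretches of 31 bases) of Gm24187, 59.3% also occur in other genes, and of those of Gm25911, 0%. Each differs from the shared sequence by few bases, and the 5 models are not treated as separate lines of evidence. Whether the reads come from miRNAs was not tested.

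All 4 called members of this family fell in WT cells and did not pass the test in KO cells. Gm24270 stood at 2794, 3045 and 2759 CPM in WT cells at 9 h and at 1510, 1398 and 1441 at 12 h. In KO cells it stood at 1559, 1344 and 1431 CPM at 9 h and at 1442, 1418 and 1333 at 12 h. The 3 WT 9 h libraries were high and the other 9 overlapped with each other. The WT step of Gm24270 was -0.98 ± 0.07 and the KO step -0.05 ± 0.07, a difference of 0.94 ± 0.10 (edgeR adjusted p = 3.27e-06). Gm24187 (0.96 ± 0.10, edgeR adjusted p = 3.27e-06) and Gm25911 (1.03 ± 0.11, edgeR adjusted p = 8.52e-06) gave differences of the same size. Gm23935, the most abundant copy, went from 26506, 30556 and 30079 CPM to 17290, 14639 and 15975 in WT cells, and its difference was 0.78 ± 0.12 (edgeR adjusted p = 0.0021). The identical copy Gm24245 had a difference of 0.95 ± 0.23 that did not pass (edgeR adjusted p = 0.088).

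Further gene models annotated as non-coding showed the same arrangement. Gm26917, annotated as a long intergenic RNA at chr17:39843013-39846341, lies outside the rule by which genes were named and was chosen after its values were seen. It stood at 22808, 22962 and 24472 CPM at WT 9 h and at 18080, 17165 and 17554 at WT 12 h. KO libraries held 18254 to 19516 CPM of Gm26917 at 9 h and 16919 to 18114 at 12 h, below all WT 9 h libraries. The difference was 0.32 ± 0.04 for Gm26917 (edgeR adjusted p = 1.27e-04). Which RNA the reads of Gm26917 derive from was not tested. Rn7sk, the 7SK RNA that holds the elongation factor P-TEFb inactive, stood at 1486, 1855 and 1944 CPM at WT 9 h, 1096 to 1182 at WT 12 h, 803 to 1013 at KO 9 h and 909 to 948 at KO 12 h. Its difference was 0.68 ± 0.14 (edgeR adjusted p = 0.047), and 72.8% of its 31-base words also occur in other annotated genes, so its counts may be shared with copies. Gm26377, an annotated miRNA gene that lies inside an exon of Eef1a1 and has all of its 31-base words in other genes, moved the other way, from 41.5 to 50.3 CPM at WT 9 h to 75.0 to 81.4 at WT 12 h. Its KO libraries held 55.4 to 69.5 CPM at 9 h and 63.8 to 73.9 at 12 h, and the difference for Gm26377 was -0.71 ± 0.14 (edgeR adjusted p = 0.0238).

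The 13 protein-coding transcripts of the mitochondrial genome rose over the step in WT cells and were already high in KO cells. They encode subunits of the respiratory chain and of ATP synthase. All 13 rose in WT cells (median log2 change 0.51) and 0 of 13 passed in KO cells (median 0.15; 5 at an unadjusted p under 0.05 in edgeR, and 0 called by DESeq2 or limma-voom), against medians of -0.01 and 0.00 over all genes tested. All 13 had a negative difference (median -0.38, against 0.01 over all genes), of which mt-Co3 and mt-Atp8 passed and 8 had an unadjusted p under 0.05. DESeq2 called 7 of the 13 and limma-voom 3, all negative. KO exceeded WT in 13 of 13 at 9 h (2.15% of all genes tested) and in 11 of 13 at 12 h (1.23%). The small RNA share of the counts moved in the opposite direction in the same libraries, and its part in this result was not tested. Neither call held in the covariate fit, which cannot separate that share from the WT step.

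mt-Atp8, a subunit of ATP synthase, had the largest negative difference among called genes. It stood at 264, 228 and 216 CPM at WT 9 h and at 428, 480 and 489 at WT 12 h. In KO cells mt-Atp8 stood at 515, 623 and 593 CPM at 9 h and at 608, 586 and 677 at 12 h. All WT 9 h libraries were below all WT 12 h libraries, which were below all 6 KO libraries. The WT step of mt-Atp8 was 0.98 ± 0.08 and the KO step 0.11 ± 0.08, a difference of -0.87 ± 0.11 (edgeR adjusted p = 7.65e-05). mt-Co3, a subunit of cytochrome c oxidase, rose from 371 to 416 CPM to 519 to 564 CPM in WT cells and stood at 524 to 560 and 564 to 623 CPM in KO cells, a difference of -0.37 ± 0.08 (edgeR adjusted p = 0.047). Of the 31-base words of mt-Co3, 99.9% also occur in nuclear copies, chiefly Gm28437. Gm28439, a nuclear copy on chromosome 1 whose words all occur in mt-Nd4, had a difference of -0.57 ± 0.12 (edgeR adjusted p = 0.0361) and cannot be told apart from it. mt-Cytb (-0.42 ± 0.10, edgeR adjusted p = 0.0729) and mt-Nd3 (-0.58 ± 0.15, edgeR adjusted p = 0.103) did not pass.

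Part of the cytosolic ribosomal protein genes fell in WT cells over the step, and part were lower in KO cells at its start. Of 43 tested in edgeR, 0 rose and 14 fell in WT cells (median -0.13), and 0 rose and 1 fell in KO cells (median -0.06). The share of all genes tested that fell was 5.37% in WT and 1.84% in KO cells. The difference had a median of 0.12 and passed in 3, all positive (Rps7, Rpl37 and Rplp0). An unadjusted p under 0.05 was found in 14 of 43, against 1167 of the 12393 genes tested. DESeq2 and limma-voom each called 6 of the 43, all positive. At 9 h KO was below WT in 22 of 43 (2.91% of all genes tested) and above it in 0, and at 12 h below in 8 (0.678%) and above in 0. Rps26, a small-subunit protein gene that is not in that list, had a negative difference.

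Rps7, a small-subunit protein gene on chromosome 12, stood at 207, 235 and 207 CPM at WT 9 h and at 141, 159 and 161 at WT 12 h. KO libraries held 131, 115 and 137 CPM of Rps7 at 9 h and 130, 142 and 135 at 12 h. The WT 9 h libraries lay above all others, and WT 12 h overlapped with KO 12 h. The WT step of Rps7 was -0.49 ± 0.07, the KO step 0.09 ± 0.07 and the difference 0.58 ± 0.10 (edgeR adjusted p = 0.00563). Rpl37 (0.50 ± 0.09, edgeR adjusted p = 0.0181) and Rplp0 (0.33 ± 0.07, edgeR adjusted p = 0.027) were likewise highest at WT 9 h. Rpl37 overlaps the small RNA gene Snord72 on the same strand, whose part in its counts was not tested. Gm8730, a processed pseudogene that shares 62.8% of its 31-base words with Rplp0, gave 0.79 ± 0.16 (edgeR adjusted p = 0.0265). Rps26 went from 175 to 192 CPM to 231 to 242 CPM in WT cells and from 221 to 257 CPM to 205 to 216 CPM in KO cells. Its difference was -0.49 ± 0.10 (edgeR adjusted p = 0.0257), the reverse of Rps7. Of the 31-base words of Rps7 30.5%, of Rplp0 42.8%, of Rps26 19.6% and of Rpl37 16.6% occur in other genes, mainly processed pseudogenes, so these counts are uncertain to that extent.

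**Figure D3:**
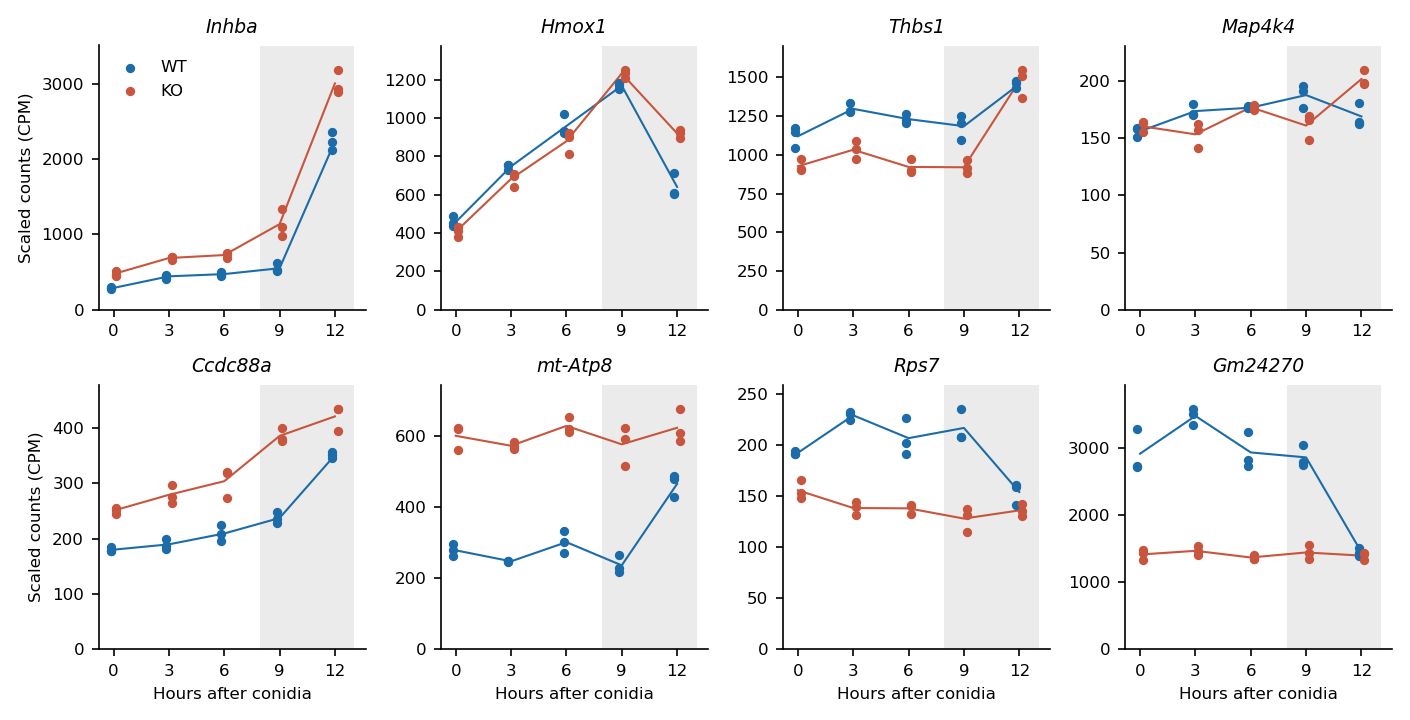
Scaled counts (CPM, linear axes from 0) of 8 called genes in every library against hours after conidia were added, with WT in blue and KO in red. Points are libraries (3 per group), lines join group means and the shaded band marks the step: within the band the WT points of Gm24270, Rps7 and mt-Atp8 move while the KO points of each overlap between 9 h and 12 h, and Inhba, Hmox1 and Thbs1 move in both genotypes.

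Inhba and Hmox1 changed in both genotypes, by different amounts. Inhba encodes the beta A subunit of activins, secreted members of the TGF-beta family. Inhba (chr13:16011851-16031621) stood at 614, 526 and 514 CPM at WT 9 h and at 2360, 2124 and 2221 at WT 12 h. In KO cells Inhba stood at 1095, 1341 and 974 CPM at 9 h and at 2890, 2936 and 3189 at 12 h. No pair of the 4 groups overlapped, and KO was the higher at both times. Inhba rose by 2.02 ± 0.09 in WT cells and by 1.40 ± 0.08 in KO cells, a difference of -0.62 ± 0.12 (edgeR adjusted p = 0.0201). KO exceeded WT by 1.04 ± 0.08 at 9 h (edgeR adjusted p = 3.51e-09) and by 0.43 ± 0.08 at 12 h (edgeR adjusted p = 0.00334). Inhba overlaps the annotated genes Gm48444 and B230303A05Rik on the opposite strand, and the sources used here do not give the strand setting of the counting. The call for Inhba was lost in 5 of the 12 fits that left out 1 library, namely without KO 12 h replicates 1 or 2, WT 12 h replicate 3 or WT 9 h replicates 2 or 3.

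Hmox1 encodes heme oxygenase 1, which degrades heme to biliverdin, iron and carbon monoxide and is a target of the transcription factor NRF2. Hmox1 (chr8:75093621-75100589) stood at 1173, 1151 and 1182 CPM at WT 9 h and at 711, 604 and 607 at WT 12 h. In KO cells Hmox1 stood at 1253, 1233 and 1211 CPM at 9 h and at 924, 938 and 898 at 12 h. The groups did not overlap at either time, and the WT 12 h libraries were the lowest. Hmox1 fell by 0.87 on the log2 scale (± 0.06) in WT cells and fell by 0.42 (± 0.06) in KO cells, a difference of 0.44 ± 0.08 (edgeR adjusted p = 0.0201). KO against WT was 0.08 ± 0.06 at 9 h (edgeR adjusted p = 0.568) and 0.52 ± 0.06 at 12 h (edgeR adjusted p = 5.36e-06). The call for Hmox1 was lost without KO 12 h replicate 2, WT 12 h replicates 2 or 3, or WT 9 h replicates 2 or 3.

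Many other NRF2 targets fell over the step. Of 24 tested, 1 rose and 17 fell in WT cells (median -0.59), and 1 rose and 12 fell in KO cells (median -0.41). Over all genes tested, 5.16% rose and 5.37% fell in WT cells, and 2.65% rose and 1.84% fell in KO cells. The difference was positive in 19 of 24 with a median of 0.17, and Hmox1 alone passed. An unadjusted p under 0.05 was found in 8 of the 24, against 1167 of the 12393 genes tested. Txnrd1, the cytosolic thioredoxin reductase, stood at 1108, 1091 and 1088 CPM at WT 9 h, 729, 663 and 690 at WT 12 h, 1229, 1206 and 1140 at KO 9 h and 905, 902 and 856 at KO 12 h. Its 12 h libraries were below its 9 h libraries in each genotype, and the KO 12 h libraries were above those of WT. The difference for Txnrd1 was 0.23 ± 0.06 and did not pass (edgeR adjusted p = 0.111; called by limma-voom), while KO exceeded WT at 12 h by 0.36 ± 0.04 (edgeR adjusted p = 1.25e-05).

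Thbs1 rose in both genotypes, with the larger step in KO cells. Thbs1, on chromosome 2, encodes thrombospondin 1, a secreted adhesive glycoprotein. It stood at 1251, 1099 and 1206 CPM at WT 9 h and at 1474, 1433 and 1463 at WT 12 h. In KO cells Thbs1 stood at 912, 965 and 883 CPM at 9 h and at 1507, 1551 and 1370 at 12 h, so that KO was lower than WT at 9 h and overlapped with it at 12 h. Thbs1 rose by 0.30 ± 0.05 in WT cells and by 0.68 ± 0.05 in KO cells, a difference of 0.38 ± 0.08 (edgeR adjusted p = 0.0255). The annotated Gm29233 lies opposite Thbs1. The call was lost in 8 of the 12 fits that left out 1 library.

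Map4k4, a serine/threonine kinase that acts upstream of JNK, was the protein-coding nuclear gene outside the ribosome whose call held in each of the 12 fits that left out 1 library. Map4k4 (chr1:39900913-40026310) stood at 191, 196 and 176 CPM at WT 9 h, 164, 162 and 181 at WT 12 h, 166, 148 and 169 at KO 9 h and 198, 210 and 197 at KO 12 h. All KO 12 h libraries were above all other libraries, and the WT 9 h and WT 12 h libraries overlapped. The KO step of Map4k4 was 0.33 ± 0.06 (edgeR adjusted p = 5.52e-04), the WT step -0.15 ± 0.06 (edgeR adjusted p = 0.098) and the difference 0.48 ± 0.08 (edgeR adjusted p = 0.00563). Map4k4 was not called in the fit of the 12 libraries alone, without the count filter or with the small RNA covariate.

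Acox3, a peroxisomal acyl-CoA oxidase, had a KO step of 0.45 ± 0.12 (edgeR adjusted p = 0.0247). It went from 78.1, 84.4 and 88.1 CPM to 63.9, 70.9 and 61.8 in WT cells, and from 65.0, 65.8 and 72.3 CPM to 92.8, 86.1 and 99.8 in KO cells. The WT 9 h and KO 12 h libraries were the high ones, and they did not overlap with the other 6. The WT step of Acox3 was -0.35 ± 0.12 (edgeR adjusted p = 0.0585) and the difference 0.80 ± 0.17 (edgeR adjusted p = 0.0363). The call was lost in 10 of the 12 fits that left out 1 library, and 4931431C16Rik lies opposite Acox3. Gm16385, a processed pseudogene that shares 44.7% of its 31-base words with the actin gene Actg1, had a KO step of 0.23 ± 0.06 and a difference of 0.39 ± 0.08 (edgeR adjusted p = 0.047).

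In the remaining called genes the WT step passed the test and the KO step did not. Ccdc88a encodes girdin, an actin-binding protein involved in cell migration. It stood at 229, 235 and 248 CPM at WT 9 h, 346, 352 and 356 at WT 12 h, 380, 401 and 377 at KO 9 h and 395, 435 and 434 at KO 12 h. WT 9 h was lowest, WT 12 h next, and the KO groups were above both. The difference for Ccdc88a was -0.44 ± 0.08 (edgeR adjusted p = 0.0206), and its KO step was 0.13 ± 0.06 (edgeR adjusted p = 0.297). Selenot, a selenoprotein of the endoplasmic reticulum, rose from 135 to 140 CPM to 165 to 177 CPM in WT cells and stood at 158 to 176 and 145 to 160 CPM in KO cells, a difference of -0.42 ± 0.08 (edgeR adjusted p = 0.0238). Olfm1, which encodes the secreted glycoprotein noelin, had a difference of -0.49 ± 0.10 (edgeR adjusted p = 0.0363). Its means were 102 CPM at WT 9 h, 125 at WT 12 h, 135 at KO 9 h and 119 at KO 12 h. The WT step of Olfm1 was 0.30 ± 0.07 and the KO step -0.19 ± 0.07 (edgeR adjusted p = 0.182), in the opposite direction.

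Prkcd encodes protein kinase C delta, which acts between Dectin-1 and Card9, and was the called member of the fungal recognition list. Prkcd stood at 644, 624 and 615 CPM at WT 9 h and at 535, 552 and 556 at WT 12 h. KO libraries held 627, 607 and 639 CPM of Prkcd at 9 h and 665, 657 and 652 at 12 h, so that WT and KO overlapped at 9 h and not at 12 h. The difference was 0.27 ± 0.06 for Prkcd (edgeR adjusted p = 0.0351), and the call was lost in 11 of the 12 fits that left out 1 library. Fermt3, the kindlin that activates integrins in blood cells, fell from 203 to 215 CPM to 149 to 164 CPM in WT cells and stood at 147 to 173 CPM in the 6 KO libraries, a difference of 0.41 ± 0.09 (edgeR adjusted p = 0.0363). Prrc2a, an RNA-binding protein, fell from 324 to 336 CPM to 234 to 278 CPM in WT cells and stood at 251 to 275 CPM in KO cells, with a difference of 0.41 ± 0.09 (edgeR adjusted p = 0.047). Fermt3 overlaps Trpt1 on the opposite strand. Prrc2a overlaps the small RNA gene Gm23442 on the same strand, whose part in its counts was not tested.

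In the wider fungal recognition list, 1 of 30 tested genes was called in the difference (Prkcd), and the median was 0.02. DESeq2 called Itgam and Ptx3 besides Prkcd, and limma-voom called Itgam besides Prkcd. WT cells raised 6 and lowered 5, and KO cells raised 4 and lowered 2. Of all genes tested, WT cells raised 5.16% and lowered 5.37%, and KO cells raised 2.65% and lowered 1.84%. Clec7a, the gene of Dectin-1, stood at 1107 to 1143 CPM at WT 9 h and 989 to 1084 at WT 12 h, and its difference was -0.03 ± 0.07 (edgeR adjusted p = 0.951). Clec4e, the gene of Mincle, a receptor for fungal glycolipids, had a difference of 0.27 ± 0.55 (edgeR adjusted p = 0.952), an error too wide to place it.

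Several cytokine genes rose steeply in both genotypes, and apart from Inhba none of the 17 tested passed in the difference. Of the 17, 10 rose in WT cells (median 1.55) and 10 in KO cells (median 1.45), and the median difference was 0.04. The share of all genes tested that rose was 5.16% in WT and 2.65% in KO cells. Il1b stood at 40.2, 34.7 and 37.0 CPM at WT 9 h, 186, 175 and 192 at WT 12 h, 59.9, 56.1 and 63.2 at KO 9 h and 262, 280 and 291 at KO 12 h. KO was the higher at both times without overlap, and Il1b rose by 2.30 ± 0.09 in WT and 2.22 ± 0.09 in KO cells, a difference of -0.09 ± 0.13 (edgeR adjusted p = 0.92). Tnf stood at 153, 135 and 140 CPM at WT 9 h, 720, 571 and 579 at WT 12 h, 233, 257 and 192 at KO 9 h and 754, 757 and 765 at KO 12 h. The KO libraries were again the higher without overlap. KO against WT passed for Tnf at 9 h (0.67 ± 0.10, edgeR adjusted p = 5.19e-05) and not at 12 h (0.28 ± 0.09, edgeR adjusted p = 0.162). The difference in the step for Tnf was -0.39 ± 0.14 (edgeR adjusted p = 0.289). Il1a gave -0.42 ± 0.15 (edgeR adjusted p = 0.328). Il6 and Il12b were low, with Il6 at 0 to 2.39 CPM at 9 h and 2.17 to 7.41 at 12 h, and Il12b at 2.07 to 4.70 CPM at 9 h and 7.74 to 22.3 at 12 h. Their differences, 1.23 ± 1.03 for Il6 (edgeR adjusted p = 0.808) and 0.92 ± 0.72 for Il12b (edgeR adjusted p = 0.785), could not be resolved at this depth.

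In the chemokine and signalling lists, edgeR called none of the members in the difference. For scale, 5.16% of all genes tested rose and 5.37% fell in WT cells, against 2.65% and 1.84% in KO cells. An unadjusted p under 0.05 in the difference was found in 1167 of the 12393 genes tested. Of 18 chemokine genes tested, 9 rose and 2 fell in WT cells, 9 rose and 1 fell in KO cells, and 0 passed in the difference in edgeR, DESeq2 or limma-voom (median 0.11, 3 at an unadjusted p under 0.05 in edgeR). Cxcl1, a neutrophil attractant, rose from 13.4 to 18.8 CPM to 93.5 to 103 CPM in WT cells and from 21.5 to 25.3 CPM to 89.4 to 102 CPM in KO cells, with a difference of -0.66 ± 0.26 (edgeR adjusted p = 0.373). Cxcl2 gave -0.28 ± 0.14 (edgeR adjusted p = 0.569). Among 28 genes of NF-kappaB subunits and feedback, 14 rose in WT cells (median 0.34) and 17 in KO cells (median 0.49), and 0 passed in the difference in any of the 3 tools (2 at an unadjusted p under 0.05 in edgeR). Tnfaip3 (-0.03 ± 0.21, edgeR adjusted p = 0.995) and Nfkbia (-0.06 ± 0.11, edgeR adjusted p = 0.944), feedback inhibitors of NF-kappaB, were among them. Of 29 immediate early factors, 18 rose in WT cells and 16 in KO cells, 0 passed in edgeR and 4 had an unadjusted p under 0.05.

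Egr1, an immediate early zinc-finger factor, came closest to the threshold in that list. Egr1 stood at 55.6, 52.6 and 53.5 CPM at WT 9 h, 271, 230 and 223 at WT 12 h, 95.4, 105 and 81.8 at KO 9 h and 290, 279 and 279 at KO 12 h. The KO libraries were the higher at both times, with a wider gap on the log2 scale at 9 h. KO against WT passed for Egr1 at 9 h (0.81 ± 0.10, edgeR adjusted p = 2.05e-06) and not at 12 h (0.23 ± 0.09, edgeR adjusted p = 0.252). Egr1 rose by 2.16 ± 0.09 in WT cells and by 1.58 ± 0.09 in KO cells, a difference of -0.58 ± 0.13 that did not pass (edgeR adjusted p = 0.0546), while DESeq2 and limma-voom each called it.

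**Figure D4:**
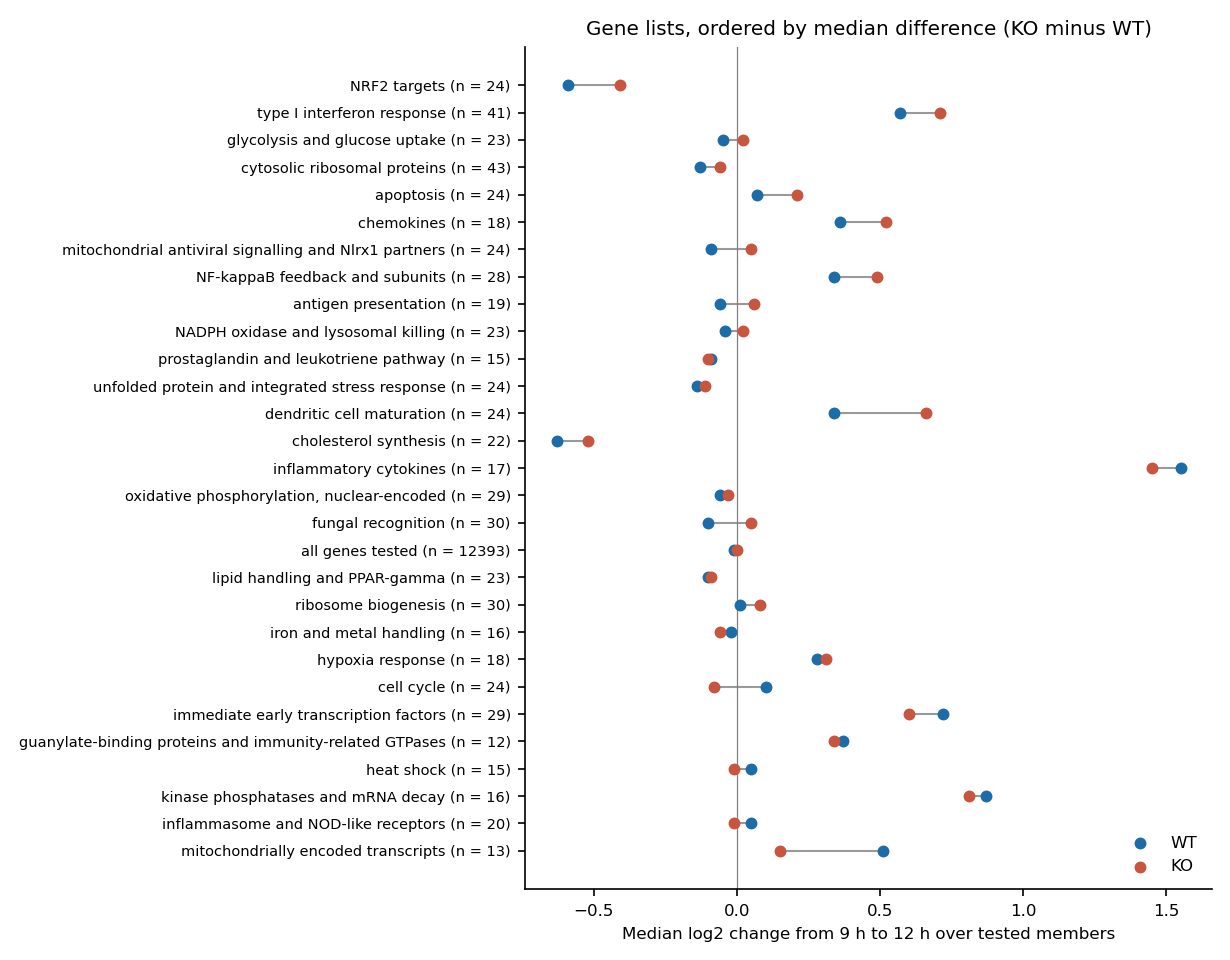
Median log2 change from 9 h to 12 h over the tested members of each gene list, in WT (blue) and KO (red) cells, ordered by the median difference between genotypes, with all genes tested as 1 row. Lists of cell type markers are not plotted. Among the lists shown, the widest gap is that of mitochondrially encoded transcripts (0.51 in WT, 0.15 in KO), while inflammatory cytokines stand at 1.55 and 1.45.

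Of the lists in the plot of list medians that are not described above, edgeR called 0 members in the difference, and of those named next DESeq2 and limma-voom called 0 as well. Among all genes tested, 5.16% rose and 5.37% fell in WT cells, and 2.65% rose and 1.84% fell in KO cells. An unadjusted p under 0.05 in the difference was found in 1167 of the 12393 genes. Dendritic cell maturation genes, 24 tested, rose in 5 cases in WT cells (median 0.34) and in 11 in KO cells (median 0.66), with a median difference of 0.05 and 5 at an unadjusted p under 0.05. Ccr7, the receptor that guides mature dendritic cells to lymph nodes, stood at 27.5 to 37.6 CPM at WT 9 h, 47.6 to 47.9 at WT 12 h, 19.5 to 22.7 at KO 9 h and 45.0 to 52.3 at KO 12 h. It rose in KO cells by 1.22 ± 0.21 (edgeR adjusted p = 3.61e-04), its WT step was 0.55 ± 0.19 (edgeR adjusted p = 0.0694), and the difference for Ccr7 was 0.67 ± 0.29 (edgeR adjusted p = 0.444). Type I interferon response genes, 41 tested, rose in 5 cases in WT and 7 in KO cells, with a median difference of 0.16 and 1 at an unadjusted p under 0.05. Cholesterol synthesis genes, 22 tested, fell in 11 cases in WT and 9 in KO cells (medians -0.63 and -0.52), with 3 at an unadjusted p under 0.05 in the difference. The guanylate-binding protein list, 12 tested, rose in 4 cases in WT and 0 in KO cells by edgeR (KO cells: 5 at an unadjusted p under 0.05, 1 called by DESeq2 and 1 by limma-voom), and its median difference was -0.05 with 0 at an unadjusted p under 0.05. Hypoxia response genes, 18 tested, rose in 7 cases in WT and 4 in KO cells, with a median difference of -0.03 and 1 at an unadjusted p under 0.05.

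Markers of other cells that marrow cultures can hold were set beside these results. The summed level of 14 macrophage markers was 3094 to 3175 CPM at WT 9 h, 2738 to 2802 at WT 12 h, 2312 to 2423 at KO 9 h and 2233 to 2445 at KO 12 h. The 15 neutrophil markers summed to 1565 to 1721, 1403 to 1510, 1216 to 1324 and 1106 to 1123 CPM in the same order. The 13 conventional dendritic cell markers summed to 1385 to 1424, 1487 to 1561, 1550 to 1579 and 1672 to 1735 CPM, each with a count in at least 1 of the 12 libraries, while the 9 B cell and the 12 T and NK cell markers each summed to at most 13.2 CPM. Of the markers, 12 macrophage, 10 neutrophil and 10 conventional dendritic cell genes were tested in the difference, and edgeR, DESeq2 and limma-voom each called 0. At an unadjusted p under 0.05 in edgeR stood 1 macrophage, 3 neutrophil and 1 conventional dendritic cell marker, and the macrophage marker Vsig4 was at 0 in all 12 libraries. The 8 stromal cell markers were low and summed to 15.1 to 23.7 CPM at WT 9 h, below 25.7 to 45.9 at WT 12 h, 24.4 to 53 at KO 9 h and 45.5 to 51.7 at KO 12 h, each with a count in at least 1 library. Of these, 5 were tested, all with a negative difference (median -0.36), and edgeR, DESeq2 and limma-voom each called 0 (0 at an unadjusted p under 0.05 in edgeR). The mean macrophage sum was 3131 CPM at WT 9 h and 2779 at WT 12 h, and the KO groups overlapped. Its member Apoe had means of 1204 and 853 CPM in WT cells. In KO cells Apoe had means of 693 and 585 CPM, a step that did not pass. Of the 12 tested macrophage markers, 5 had a positive and 7 a negative WT step, with 2 called up and 3 called down. The part of the macrophage and stromal sums in the called genes was not tested. In bulk RNA, fewer cells of a type and less RNA per cell cannot be told apart.

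Promoters of the called genes were searched for short motifs on both strands. RefSeq promoters (GRCm38.p6, a window around each gene's start) were found for 12 of the 17 called protein-coding genes, 14 promoters in all. The kappaB letters GGGNNTTCC or GGGNNTTTC were in the promoter of Prrc2a, against 9.53% of 32851 promoters. The interferon element GAAANNGAA was in those of Olfm1 and Rps7, against 8.56%. The antioxidant element TGACNNNGC was in that of Rplp0, against 12.4%, and the E-box CACGTG, which can overlap the hypoxia element, in that of Prkcd, against 7.15%. The AP-1 letters TGACTCA, the CRE letters TGACGTCA and the hypoxia element ACGTGC were in 0 of the 14, against 5.2%, 1.79% and 5.91%. A match describes letters in this window alone.

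How firmly a gene was called varied with the fit. The count of 27 came down to 8 when the 12 libraries were fitted alone and 6 without a filter on low counts, and went up to 67 with limma-voom and 68 with DESeq2. Leaving out 1 library gave 9 to 39 calls, and the count moved by over 1.5 times without KO 12 h replicate 1 (14) or 2 (12), KO 9 h replicate 2 (17), WT 12 h replicate 2 (11) or 3 (9), or WT 9 h replicate 2 (11) or 3 (14). In every one of those 12 fits 8 genes held, namely Gm24270, Gm24187, Gm25911, Gm23935, Gm26917, mt-Atp8, Map4k4 and Rps7.

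**Figure D5:**
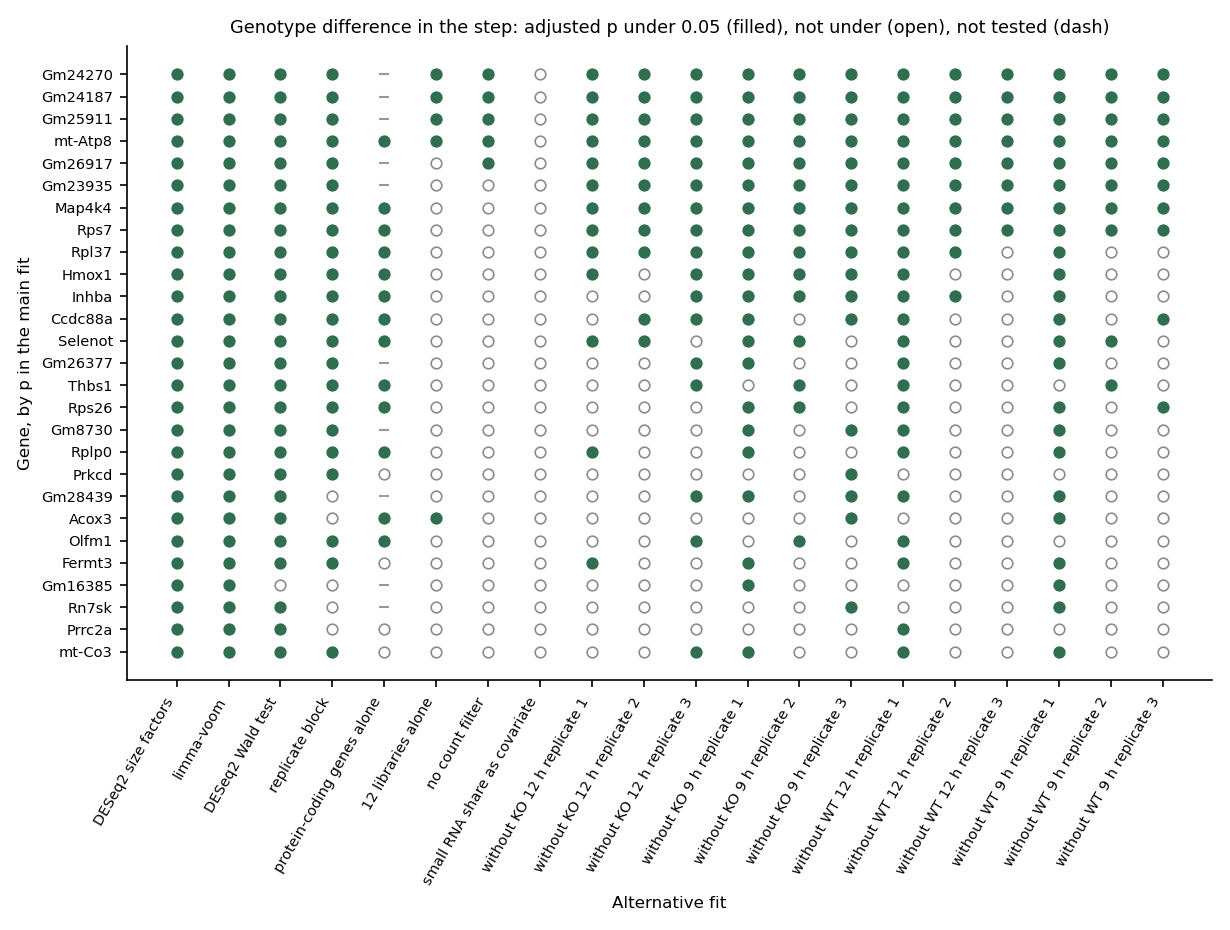
Whether each of the 27 called genes (rows, by p) had an adjusted p under 0.05 for the genotype difference in each alternative fit (columns): filled circles passed, open circles did not, and a dash marks a gene that the fit did not test. The top 8 rows are filled in each fit that left out 1 library, and the column of the small RNA covariate has no filled circle.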

How the data were processed

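The table deposited by the authors holds whole-number counts per Ensembl gene for 30 libraries. The submitters' processing notes name Trimmomatic 0.35, HISAT2, StringTie, DESeq2 and the build GRCm38. The annotation, strand setting and counting step were not stated there. Per the labels' protocols, RNA was converted with a strand-specific mRNA kit. Names and coordinates came from GENCODE M21 (54495 of 54532 IDs found).

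Genes were kept with filterByExpr (minimum count 10), which left 12393 genes with 98.66% of counts. With edgeR 4.0.16 (TMM, robust quasi-likelihood, R 4.3.3), all 30 libraries entered 1 fit with a coefficient for each group, since groups have 3 libraries each. Adjusted p-values are two-sided and Benjamini-Hochberg adjusted over the 12393 genes, and 0.05 was the threshold. Standard errors of log2 changes were derived from the test, as the absolute log2 change divided by the square root of its F statistic. The script was tested on simulated data. Copies were counted as 31-base words of a gene's transcripts found in transcripts of other genes.

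Genes were named by rule: Nlrx1, the 15 largest positive and 15 largest negative called differences with at least 5 CPM in the highest group, up to 4 members with the smallest p from each list, and a set of response genes. Members, lists and the rule were chosen with earlier results of these data known. Alternatives were DESeq2 1.42.0 (test and size factors), limma-voom 3.58.1, no filter, 12 libraries alone, protein-coding genes alone, a replicate block, the small RNA share as a covariate, and each of the 12 libraries left out. The authors' own comparison tables were not used.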

Additional observations from a re-analysis of the deposited data

Results flagged for a closer look

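Each of the 27 genes called in the genotype difference of the 9-to-12 h step stands here because the tested difference between WT and KO steps was beyond the threshold. The log2 difference was positive for Gm25911 (1.03), Gm24187 (0.96), Gm24270 (0.94), Gm23935 (0.78) and Gm26917 (0.32), which are non-coding gene models, and for Rn7sk (0.68). It was positive for the ribosomal protein genes Rps7 (0.58), Rpl37 (0.50) and Rplp0 (0.33) and for the pseudogenes Gm8730 (0.79) and Gm16385 (0.39). Among other protein-coding genes it was positive for Acox3 (0.80), Map4k4 (0.48), Hmox1 (0.44), Fermt3 (0.41), Prrc2a (0.41), Thbs1 (0.38) and Prkcd (0.27). It was negative for mt-Atp8 (-0.87), mt-Co3 (-0.37) and the nuclear copy Gm28439 (-0.57). It was negative as well for Gm26377 (-0.71), Inhba (-0.62), Rps26 (-0.49), Olfm1 (-0.49), Ccdc88a (-0.44) and Selenot (-0.42). No group had enough libraries for a check of single outlying samples.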

How the results depend on the processing

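The count of 27 genes became 8 with the 12 libraries alone, 68 with DESeq2, 67 with limma-voom, 6 without a count filter, 13 among protein-coding genes alone and 0 with the small RNA covariate, and it ran from 9 to 39 with 1 library left out. The WT step (1305) became 832 without a filter and 39 with the covariate, and 874 to 1301 with 1 library left out. The KO step (557) became 285 without a filter and 540 with the covariate, and 385 to 549 with 1 library left out. The small RNA share set WT 9 h apart from the other groups. The covariate fit therefore cannot separate that share from a comparison with WT 9 h, and its counts do not rank the genotypes. KO against WT at 9 h (627) became 407 without a filter and 0 with the covariate (edgeR), and 377 to 628 with 1 library left out. KO against WT at 12 h (236) became 143 with the 12 libraries alone, 109 without a filter and 107 with the covariate, and 143 to 240 with 1 library left out. Fewer libraries or more genes tested enter some of these fits by construction; otherwise the cause was not tested. Of 530 values of the called genes under the alternatives, 529 kept their direction, and Gm28439 reversed to 0.02 with the covariate. Direction says little of size there: Rn7sk came to 0.01, mt-Co3 to -0.01, Inhba to -0.16 and Gm23935 to 0.23.

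A replicate block gave 25 calls, 22 of them among the 27. Same-numbered libraries had correlations of -0.045 to 0.059 between their deviations from the group means, and other-numbered libraries -0.056 to 0.074. Of 12 libraries, 6 correlated best with their own number. All these correlations were near 0, so whether the numbers pair the libraries cannot be told from them.

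At 2105254 to 3509429 counts per library, differences of low genes such as Il6 were not detectable. No scaling moved the median of all genes by over 0.1.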

Other observations

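Single genes from several lists rose in both genotypes over the step, and the difference did not pass in edgeR for those given here. They do not stand for their lists. The median step of the cell cycle list, which holds Mki67, was 0.10 in WT and -0.08 in KO cells. It was -0.05 and 0.02 for glycolysis (Hk2), 0.05 and -0.01 for heat shock (Hspa1a), and -0.10 and 0.05 for fungal recognition (Ptx3). Mki67, a proliferation marker, rose by 0.70 ± 0.09 in WT cells and 0.52 ± 0.10 in KO cells, a difference of -0.19 ± 0.13 (edgeR adjusted p = 0.742). Hk2, the hexokinase at the entry to glycolysis, rose by 0.50 ± 0.06 and 0.61 ± 0.06, a difference of 0.11 ± 0.09 (edgeR adjusted p = 0.799). Hspa1a, an inducible heat shock chaperone, rose by 1.69 ± 0.11 and 1.65 ± 0.11, a difference of -0.04 ± 0.16 (edgeR adjusted p = 0.976). Ptx3, a secreted pentraxin that binds conidia, rose by 1.33 ± 0.09 and 0.91 ± 0.09, a difference of -0.42 ± 0.12 (edgeR adjusted p = 0.157; called by DESeq2).

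Itgam, the integrin alpha M subunit, had a large difference, 1.34 ± 0.35, that did not pass (edgeR adjusted p = 0.13; called by DESeq2 and limma-voom). Its 3 KO 9 h libraries held 347, 906 and 539 CPM of Itgam, a wider spread than the 779 to 826 CPM of the WT 9 h libraries. Mt2, a metallothionein that binds zinc, rose by 1.43 ± 0.13 in WT cells and 0.69 ± 0.12 in KO cells, a difference of -0.74 ± 0.18 (edgeR adjusted p = 0.0844; called by DESeq2 and limma-voom). Aldh1a2, a retinoic acid synthesis enzyme, stood at 20.8 to 31 CPM in the 6 WT libraries and 59.1 to 88.0 CPM in the 6 KO libraries, and its difference in the step was 0.10 ± 0.17 (edgeR adjusted p = 0.95).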
